A study of Mus musculus with 12 samples.

Results

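The regions described here are stretches of the mouse genome where RNA pulled down with an antibody against N1-methyladenosine (m1A) was called as a peak in striatal libraries of Tet1 knockout (KO) mice and in no control library. Peaks of all 6 pull-down lists were merged where they shared at least 1 bp, which gave 13572 regions. A region was a KO-alone region if 2 or 3 of the 3 KO lists and 0 of the 3 control lists held a peak in it. Members were thus chosen by the measured peak calls themselves, so these calls and the folds behind them are given as a description. The rule held for 903 regions, or 6.65% of all. The mirror rule, 2 or 3 control lists and no KO list, gave 479 control-alone regions (3.53%), and 402 regions were called in all 6 libraries. Absence from a list means that no peak passed the caller's limit there, not that no m1A was present.

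All mice were adult males homozygous for a floxed Tet1 allele (Tet1 fl/fl). The caudate putamen (CPu), a part of the striatum, was injected with AAV-Cre-EGFP to delete Tet1 or with AAV-EGFP as the control. The tissue was taken 2 weeks later, so both groups carry the floxed allele, a viral injection and EGFP. Each of the 6 pull-downs, 3 labelled Tet1 KO and 3 labelled floxed, was made from 90% of a total RNA sample, and 10% was kept as its input. The labels do not name the virus for each sample, so the virus of a group is read from the protocol and the titles. Nor do they say which promoter drove Cre, what share of cells was infected, or whether each library came from 1 mouse. The tissue was taken in bulk, so fewer cells of a type and less RNA per cell cannot be told apart, nor can either be told apart from a change in methylation per molecule.

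N1-methyladenosine carries a methyl group on the base-pairing edge of adenine and a positive charge. It is best known in the T loop of transfer RNAs, where TRMT6 and TRMT61A install it, and it has also been mapped in messenger RNAs, often near their starts. ALKBH1 and ALKBH3 are known to remove it from RNA. TET1, a dioxygenase, is known above all as an oxidiser of 5-methylcytosine in DNA, and the study asked at which transcripts it affects m1A.

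To show what such a region looks like in sequence, 4 start-proximal examples called in all 3 KO lists are printed from the RefSeq promoter table (GRCm38.p6). Each line gives the 250 bases before an annotated start, 5′ to 3′ on the gene's strand, with the bases inside the KO-alone region in capitals. They are the adenosine A1 receptor gene Adora1, Commd1, whose product takes part in copper handling and NF-κB control, the sphingomyelin synthase gene Sgms1, and Mmaa, which serves mitochondrial cobalamin metabolism.
Adora1, chr1:134234857-134235106, minus strand: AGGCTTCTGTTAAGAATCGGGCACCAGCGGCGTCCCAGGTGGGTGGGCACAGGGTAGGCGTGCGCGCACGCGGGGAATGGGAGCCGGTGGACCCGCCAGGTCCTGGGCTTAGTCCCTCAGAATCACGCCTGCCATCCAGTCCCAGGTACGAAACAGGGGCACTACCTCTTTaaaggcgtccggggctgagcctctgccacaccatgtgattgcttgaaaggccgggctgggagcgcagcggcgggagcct
Commd1, chr11:22972867-22973116, minus strand: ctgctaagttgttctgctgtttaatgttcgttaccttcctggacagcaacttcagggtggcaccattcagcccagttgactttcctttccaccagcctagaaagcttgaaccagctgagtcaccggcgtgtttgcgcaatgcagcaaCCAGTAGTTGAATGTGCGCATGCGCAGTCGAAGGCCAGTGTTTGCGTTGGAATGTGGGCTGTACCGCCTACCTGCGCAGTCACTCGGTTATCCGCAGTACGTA
Sgms1, chr19:32388050-32388299, minus strand: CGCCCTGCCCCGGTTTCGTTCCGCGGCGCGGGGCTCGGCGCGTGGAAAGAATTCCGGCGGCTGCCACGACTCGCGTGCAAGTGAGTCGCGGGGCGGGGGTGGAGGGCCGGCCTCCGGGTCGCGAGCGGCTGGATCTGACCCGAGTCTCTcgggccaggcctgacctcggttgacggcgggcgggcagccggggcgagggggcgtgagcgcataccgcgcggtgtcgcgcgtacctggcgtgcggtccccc
Mmaa, chr8:79294737-79294986, minus strand: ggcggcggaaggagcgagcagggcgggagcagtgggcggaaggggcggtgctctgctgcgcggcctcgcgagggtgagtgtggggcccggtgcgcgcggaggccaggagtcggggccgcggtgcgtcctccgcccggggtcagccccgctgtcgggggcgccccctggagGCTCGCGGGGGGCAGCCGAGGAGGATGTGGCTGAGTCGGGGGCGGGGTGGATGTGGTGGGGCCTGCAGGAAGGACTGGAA

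The region at Adora1 had its summit 155 bases upstream of this start and reached 12.7-fold enrichment in KO 1, 5.57 in KO 2 and 11.7 in KO 3. At Sgms1 the summit lay 215 bases upstream, with folds of 7.02, 6.21 and 7.51. The summit at Commd1 was 45 bases inside the gene, with folds of 5.79, 7.67 and 7.54. At Mmaa it was 17 bases upstream, with folds of 8.42, 8.15 and 9.05. Folds here are those in the authors' peak lists, the height of the pull-down over the local background that the peak caller estimated from the input. All 4 summits lay inside the annotated span of their gene, which at Adora1, Sgms1 and Mmaa reaches beyond the printed start.

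Of the 903 regions, 53 touched 57 of the 32851 windows in the promoter table, which run from 250 bases before to 50 after a start. These windows were rich in G and C, with a median of 66.0% against 52.7% over all windows, and the windows touched by control-alone regions (75 windows, 71.0%) and by regions of all 6 libraries (87 windows, 68.3%) were richer still. The letters GTTCNA, the T-loop-like context in which TRMT6 and TRMT61A act written more loosely, were found on either strand in 15 of the 57 windows (26.3%). The share was 31.3% over all windows, 10.7% in those touched by control-alone regions and 11.5% in those touched by regions of all 6 libraries. The longer GTTCNANNC, which lies within GTTCNA matches, was found in 4 of the 57 windows (7.02%), against 9.32% of all windows. Its share was 1.33% in windows touched by control-alone regions and 5.75% in those touched by regions of all 6 libraries. A match describes these letters alone and is not a mapped site.

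KO-alone regions also covered small RNA genes whole. The hairpins of 3 microRNA genes, Mir6976, Mir5114 and Mir6982, lay wholly inside a region, and 2 of them are printed as examples of complete small RNA sequences inside a region. Capitals mark bases inside the region, which here is every base.
Mir6976, chr17:46553827-46553889, minus strand: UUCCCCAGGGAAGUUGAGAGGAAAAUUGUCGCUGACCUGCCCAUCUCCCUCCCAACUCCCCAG
Mir5114, chr19:44303171-44303231, plus strand: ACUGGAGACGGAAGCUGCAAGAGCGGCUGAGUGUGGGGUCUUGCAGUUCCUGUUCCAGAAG

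Mir6976 lies in Srf, which encodes the serum response factor, and its region was called in KO 2 at 4.69-fold and in KO 3 at 9.03-fold. Mir5114 lies in the stearoyl-CoA desaturase gene Scd2, and its region was called in KO 1 at 2.90-fold and in KO 3 at 3.14-fold. The Mir5114 hairpin holds GUUCNA and the Mir6976 hairpin does not. The RNA was fragmented before the pull-down, so the signal cannot be told apart from that of the host transcript. In all, 4 microRNA genes were touched by the 903 KO-alone regions and 4 by the 479 control-alone regions. The like count over all regions was not taken.

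Transfer RNA genes, the textbook carriers of m1A, were touched by 4 of 903 KO-alone regions, 3 of 479 control-alone regions and 5 of 402 regions of all 6 libraries. Over all 13572 regions, 35 touched a tRNA gene, so each of these counts is small. A region over n-TGtcc4, a glycine tRNA gene, was called in all 3 KO lists at 9.01-, 9.17- and 8.03-fold. Those over the glycine genes n-TGtcc5 and n-TGgcc14 and over the histidine gene n-THgtg6 were each called in 2 KO lists, at 6.79-fold to 9.94-fold. Within the same tRNA cluster on chromosome 1, n-TDgtc4 and n-TDgtc6, both aspartate genes, were called in all 3 control lists and in no KO list, at 5.56-fold to 9.27-fold. Neighbouring tRNA genes of this cluster therefore fell into opposite classes. These genes have near-identical copies, and how reads that map to several copies were placed is not given in the sources used here, so the assignment to a copy is uncertain.

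The libraries differed in depth in the direction of the groups. The peak caller used 459332, 1097292 and 864206 pull-down tags from control 1, 2 and 3, and 1235247, 2508102 and 1336328 from KO 1, 2 and 3, so every KO library was deeper than every control library. The lists held 3179, 3444 and 3004 control peaks and 3782, 6947 and 3057 KO peaks. Among these, 2 libraries stood apart: control 1, the shallowest, was called with duplicate tags kept while the other 5 were not, and KO 2 gave by far the longest list. The part of depth in which regions were called in KO alone was not tested. No list held a peak in Tet1 itself, so these lists do not check the deletion.

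**Figure D1:**
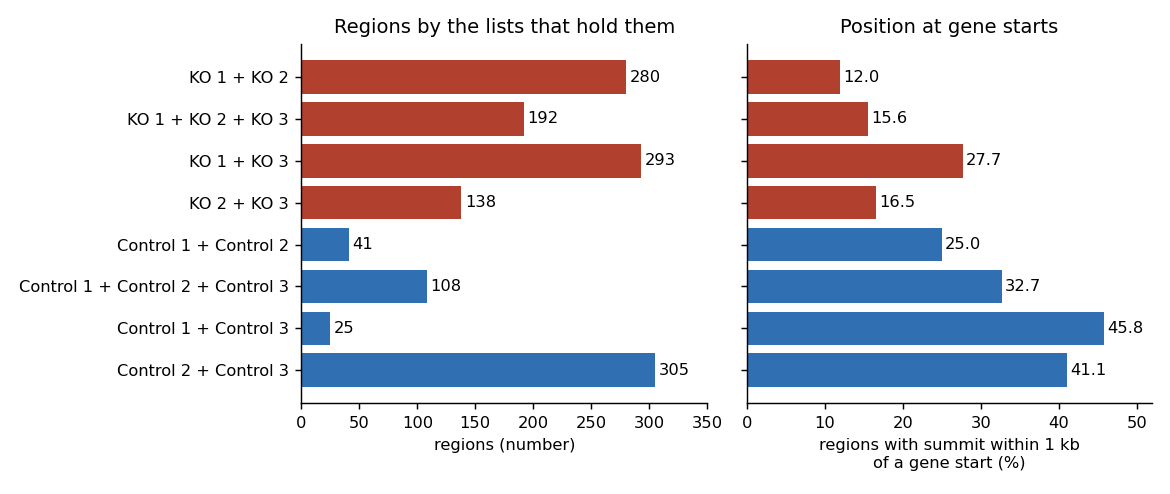
Left, number of regions (horizontal axis) by the exact set of lists that held them, KO-alone in red and control-alone in blue. Right, share of those regions with a summit within 1 kb of an annotated gene start, in percent. KO pairs range from 138 to 293 regions, and the control class rests mostly on the pair of control 2 and control 3 with 305.

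The members came from every combination of KO libraries. KO 1 and KO 3 shared 293 regions, KO 1 and KO 2 shared 280, KO 2 and KO 3 shared 138, and 192 were in all 3 lists (1.41% of all regions, against 0.796% in all 3 control lists alone). The plot of regions by list combination shows that no pair of KO libraries dominated, whereas 305 of 479 control-alone regions came from control 2 and control 3. KO 1 held 765 of the regions, KO 2 held 610 and KO 3 held 623.

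The number of members was sensitive to each KO library, because the rule asks for at least 2. Without KO 1 there were 330 KO-alone and 609 control-alone regions, without KO 2 there were 487 and 651, and without KO 3 there were 472 and 606. Without control 2 the numbers were 1193 and 135, and without control 3 they were 1082 and 149. Leaving out control 1 and KO 2 together left 504 KO-alone and 567 control-alone regions, and holding every list to the length of the shortest, 3004 peaks, gave 657 and 520. KO-alone regions were thus the more numerous class with lists of equal length, but not with control 1 and KO 2 both left out. Leaving out a library of 1 genotype lowers the count of that genotype and raises the other by the rule itself. Those numbers therefore do not compare the sizes of the classes.

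By strength the members were ordinary peaks of their lists. Their median fold was 7.21 in KO 1, 7.77 in KO 2 and 7.51 in KO 3, against 7.16, 7.23 and 7.53 over the whole lists. The highest fold of any member was 41.7. At their summits a median of 15 overlapping fragments was piled up in KO 1, 22 in KO 2 and 16 in KO 3. Regions called in all 3 KO lists had a median best fold of 10.5, and those called in 2 had 8.54. Just outside the rule, regions of a single KO list and no control list (6116, of which 4468 were from KO 2) had 6.82, and regions of 2 KO lists and 1 control list (342) had 8.77, with a median control fold of 6.73. These values chose the members or sit beside the threshold, and they carry no test.

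The rule bars a control peak from overlapping a member, but not from lying beside it. Of regions with a distance to a start, 790 of 883 KO-alone regions had no control peak within 1 kb. In the mirror class, 395 of 468 control-alone regions had no KO peak within 1 kb. A control peak lay within 1000 bp of 95 members (10.5%) and within 100 bp of 10, and the median distance to the nearest was 47753 bp. The median width was 253 bp, above the 199 bp over all regions and the 177 bp of regions of 1 list, and below the 296 bp of control-alone regions and the 466.5 bp of regions of all 6 libraries.

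Position along genes was a measure that the rule did not use, and here the KO-alone regions lay near the value over all regions and below both control-alone regions and regions of all 6 libraries. On the chromosomes that the start table covers, 164 of 883 KO-alone regions (18.6%) had their summit within 1 kb of an annotated start. The share was 38.0% for control-alone regions (178 of 468) and 37.1% for regions of all 6 libraries (144 of 388), with 20.5% over all regions and 15.0% over regions of 1 list. Within 300 bp of a start the shares were 10.99%, 29.1% and 27.1%. Regions are not independent replicates and the libraries of a class share them, so no p-value is given.

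**Figure D2:**
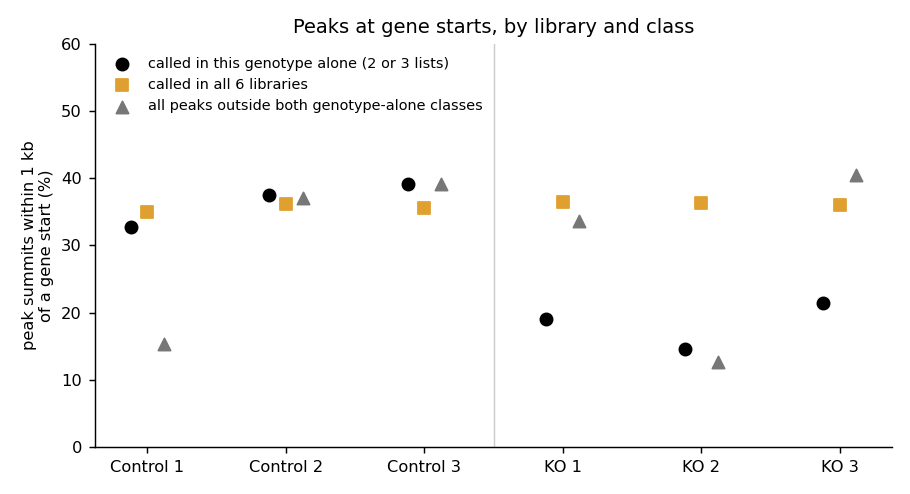
Share of peak summits within 1 kb of a gene start (vertical axis, percent) in each of the 6 libraries, for peaks in regions of that genotype alone (black circles), in regions of all 6 libraries (yellow squares) and for all peaks outside both genotype-alone classes (grey triangles). In KO 1 and KO 3 the black circles lie at 19.0% and 21.4%, below the other points of the same library, while regions of all 6 libraries lie between 35.0% and 36.5% in every library.

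By library, the share among peaks in KO-alone regions was 19.0% in KO 1, 14.5% in KO 2 and 21.4% in KO 3, and among peaks in control-alone regions it was 32.7%, 37.4% and 39.2% in control 1, 2 and 3. Libraries of a class share most of its regions by the rule, so the likeness within a class carries no weight of its own. In KO 1 and KO 3 the members lay below the remaining peaks of the same list, which were at 33.7% and 40.4%, whereas in control 2 and control 3 the genotype-alone peaks and the remaining peaks (37.0% and 39.1%) were alike. In KO 2 the members lay slightly above its remaining peaks, which were at 12.6%, and in control 1 the remaining peaks were at 15.4%. Over the remaining peaks, KO minus control was -1.60 percentage points, with an exact two-sided permutation p of 0.8 (n = 3 against 3, smallest possible p 0.1, Benjamini-Hochberg adjusted p 0.8 over 3 library tests). That difference turned to 6.56 without KO 2.

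The list combinations overlapped at one point. Regions of KO 1 and KO 3 reached 27.7%, above regions of control 1 and control 2, of which 10 of 40 were near a start. The other KO combinations lay between 12.0% and 16.5%, and the other control combinations between 32.7% and 45.8%. Without control 1 and KO 2 the shares were 23.1% for KO-alone and 33.6% for control-alone regions. Over 15 alternatives the control-alone share exceeded the KO-alone share by 9.99 to 30.2 percentage points. The start table lacks some genes, and among regions in a gene that it holds the shares were 25.04% and 49.3%.

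**Figure D3:**
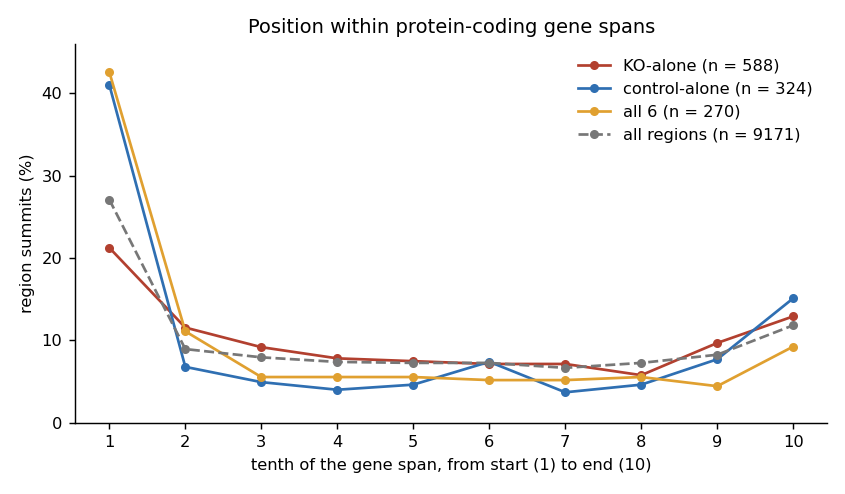
Share of region summits (vertical axis, percent) along the gene span cut into 10 equal parts from start to end (horizontal axis), for regions inside exactly 1 protein-coding gene with a start in the table. KO-alone regions (588, red) have 21.3% in the leading part, against 41.0% of control-alone (324, blue) and 42.6% of all-6 regions (270, yellow), and the dashed grey line is all 9171 regions.

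Inside protein-coding genes, the position of KO-alone regions was close to that of regions of 1 list. Of 588 regions inside exactly 1 such gene with a known start, 87 (14.8%) lay in the first 5% of the span, against 16.2% of regions of 1 list, 21.2% of all regions, 35.5% of 324 control-alone and 37.0% of 270 all-6 regions. The middle of the span, outside the first and last 5%, held 76.9% of KO-alone regions, 77.0% of regions of 1 list, 71.9% of all regions and 54.6% of control-alone regions. The last 5% held 8.33% of KO-alone, 6.96% of all and 9.88% of control-alone regions. The cuts at 5% and into 10 parts were chosen after the positions had been seen. The files and tables used here hold no exons, so exonic, intronic and UTR positions were not assigned.

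KO-alone regions were also more often outside annotated genes. In all, 744 (82.4%) had their summit in a protein-coding gene span, 27 (2.99%) in a lncRNA gene, and 118 (13.1%) in no annotated gene. The share without a gene was 6.26% for control-alone regions, 5.47% for regions of all 6 libraries and 8.49% over all regions. It reached 17.2% among the 192 regions of all 3 KO lists, and it was 15.7% among the 108 regions of all 3 control lists, so in regions called in every library of a genotype the classes were close. Without KO 2 the KO-alone share was 16.4%.

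Of the 118 regions without a gene, 60 lay more than 10 kb from the nearest annotated gene. A region at chr2:167707300-167708063, 10135 bp from the lncRNA gene A530013C23Rik, was called at 13.3-fold in KO 1, 22.9 in KO 2 and 18.1 in KO 3. Another, chr13:23223706-23224811, 4228 bp from the vomeronasal receptor pseudogene Vmn1r-ps133, was called at 29.4-, 13.0- and 40.4-fold. The latter is 1106 bp wide. Both were high in each of the 3 KO lists and absent from each of the 3 control lists.

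**Figure D4:**
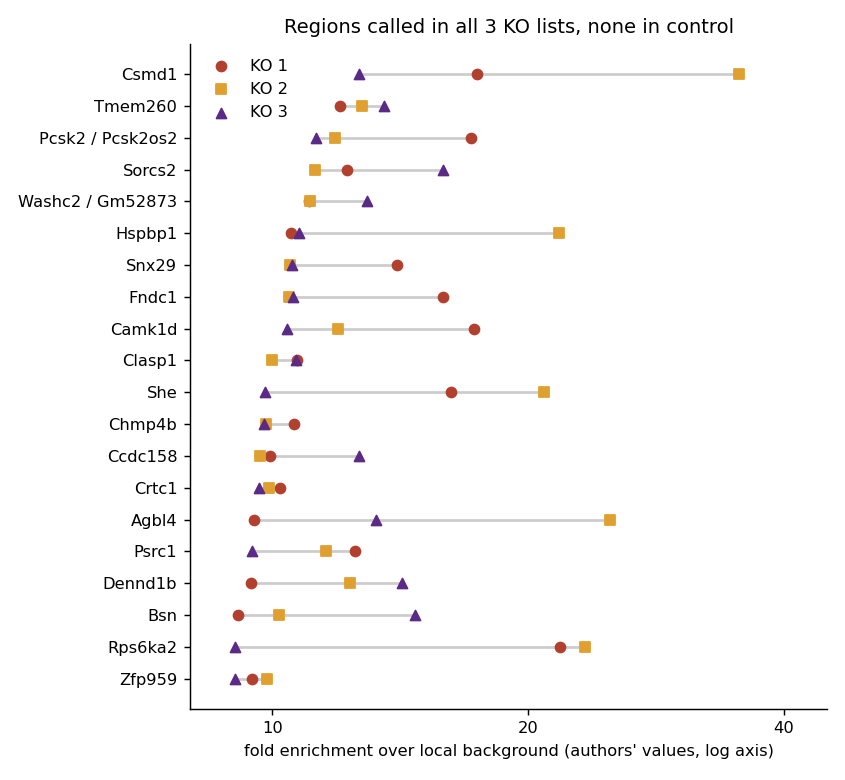
Fold enrichment in the authors' KO peak lists (horizontal log axis) for the 20 gene-linked regions called in all 3 KO lists with the highest lowest fold; circles are KO 1, squares KO 2 and triangles KO 3, and grey lines join the lowest and highest. Csmd1 spans 12.6 to 35.4, and the lowest points, at Rps6ka2 and Zfp959, lie near 9.03.

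The 20 strongest gene-linked regions of all 3 KO lists, ranked by the lowest of their folds, had folds of 9.03 to 35.4. The region with the highest rank lay in Csmd1, a large gene for a complement-regulating membrane protein of neurons (chr8:17265720-17265975). Its folds were 17.4 in KO 1, 35.4 in KO 2 and 12.6 in KO 3. Csmd1 held 27 regions in all, of which 25 were called in KO 2, and control 1 and control 2 had peaks elsewhere in it. The region in Pcsk2, the prohormone convertase of neuropeptide processing, had folds of 17.2, 11.9 and 11.3. That in Sorcs2, a sorting receptor for neurotrophins, had 12.2, 11.2 and 15.9. KO 1 gave the highest fold in 8 of the 20 regions and KO 2 and KO 3 in 6 each, so no library led throughout.

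The 20 genes differ in function. The region of Crtc1, a coactivator of CREB, had folds of 10.2, 9.91 and 9.64 with its summit 218 bases from a start. Bsn, which encodes the active zone scaffold Bassoon, had 9.11, 10.2 and 14.7, and the calmodulin kinase gene Camk1d had 17.3, 12.0 and 10.4. Rps6ka2, a ribosomal S6 kinase, had 21.8, 23.3 and 9.04. The others included Clasp1, a microtubule plus-end binding protein, Chmp4b of the ESCRT-III complex, Washc2 of the WASH complex, Tmem260, Fndc1, She, Ccdc158, Psrc1 and Zfp959. Of the 20 regions, 4 had a summit within 1 kb of a start, and 13 lay in a gene with a control peak elsewhere. Of all 751 genes with a KO-alone region, 389 (51.8%) had such a peak.

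Among regions called in exactly 2 KO lists, 4 of the 8 strongest by their lower fold lay in no annotated gene. The highest, chr9:11793346-11793612, had 17.1-fold in KO 1 and 16.5 in KO 3. The others lay in D630045J12Rik (22.2 and 15.8 in KO 1 and KO 3), in the neuregulin gene Nrg1 (14.2 and 13.5 in KO 1 and KO 2), in Ctnnbip1, which encodes an inhibitor of β-catenin binding (13.2 and 14.3 in KO 1 and KO 3), and in the synaptophysin gene Syp (12.7 and 15.0 in KO 1 and KO 3). A region missing from 1 KO list could thus be stronger in the other 2 than most regions of all 3. At the other end, Upp2 (4.51 and 4.09 in KO 1 and KO 2) and Wsb2 (3.15 and 2.92 in KO 1 and KO 3) were among the 3 members with the weakest best q-value.

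The 785 members inside genes lay in 751 genes, which are 11.3% of the 6643 genes with any peak. Control-alone regions lay in 440 genes (6.62%), and 41 genes (0.617%) held both kinds. A gene with a KO-alone region could hold control peaks too: 389 of the 751 (51.8%) had a control peak elsewhere, 116 of them in all 3 control lists, and 362 had none. The like share over all 6643 genes was not taken, so 51.8% has no baseline here. Single control lists held a peak in 36.8%, 38.6% and 34.5% of the 6643 genes (control 1, 2 and 3). One of the 41 genes with both kinds was Alkbh3, the m1A demethylase. Its KO-alone region was called at 8.20-fold in KO 2 and 7.16 in KO 3, and its control-alone region at 5.54 in control 1 and 8.59 in control 2.

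The rest of these genes was compared between genotypes over libraries. A further region, in neither genotype-alone class, was present in 28.2%, 33.3% and 29.8% of the 751 genes in control 1, 2 and 3, and in 33.2%, 48.5% and 29.7% in KO 1, 2 and 3. The groups overlapped, and KO 2 was highest. The means were 37.1% ± 9.99 (SD, n = 3) in KO and 30.4% ± 2.59 (SD, n = 3) in control libraries, a difference of 6.66 percentage points for which the exact two-sided permutation test gave p = 0.5 (adjusted p = 0.8). With lists of equal length the difference was 0.883. Taken against each library's own number of peak-bearing genes, they made up 9.55% in KO and 9.40% in control libraries (exact permutation p 0.8, adjusted p 0.8). No difference of the host genes outside their KO-alone regions was thus detected, in a design that cannot reach p below 0.1.

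Some genes held several members: of the 751 genes, 68 held at least 2 KO-alone regions and 14 held at least 3. Several regions per gene were common in general, as all 13572 regions, 1152 of them in no gene, lay in 6643 genes. KO-alone regions were 6.65% of all regions. Rbfox1, a neuronal splicing factor gene, held 4, spread over its body, at 3.61-fold to 12.0-fold. It also had 66 regions in all, of which 56 were called in KO 2. Rora, a nuclear receptor gene, held 4, one of them called in all 3 KO lists at 8.30-, 6.94- and 6.68-fold, among 15 regions of which 13 were called in KO 2. KO 2 called 3 of the 4 members in Rbfox1 and all 4 in Rora.

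Dctn1, which encodes the largest dynactin subunit, held 3, and 2 of these were called in all 3 KO lists, at 10.8-, 7.01- and 12.1-fold and at 6.24-, 5.75- and 5.84-fold. It also held a control-alone region. Kcnma1, the BK potassium channel gene, and Nrg1 held 3 each, but both also held a region of all 6 libraries.

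**Figure D5:**
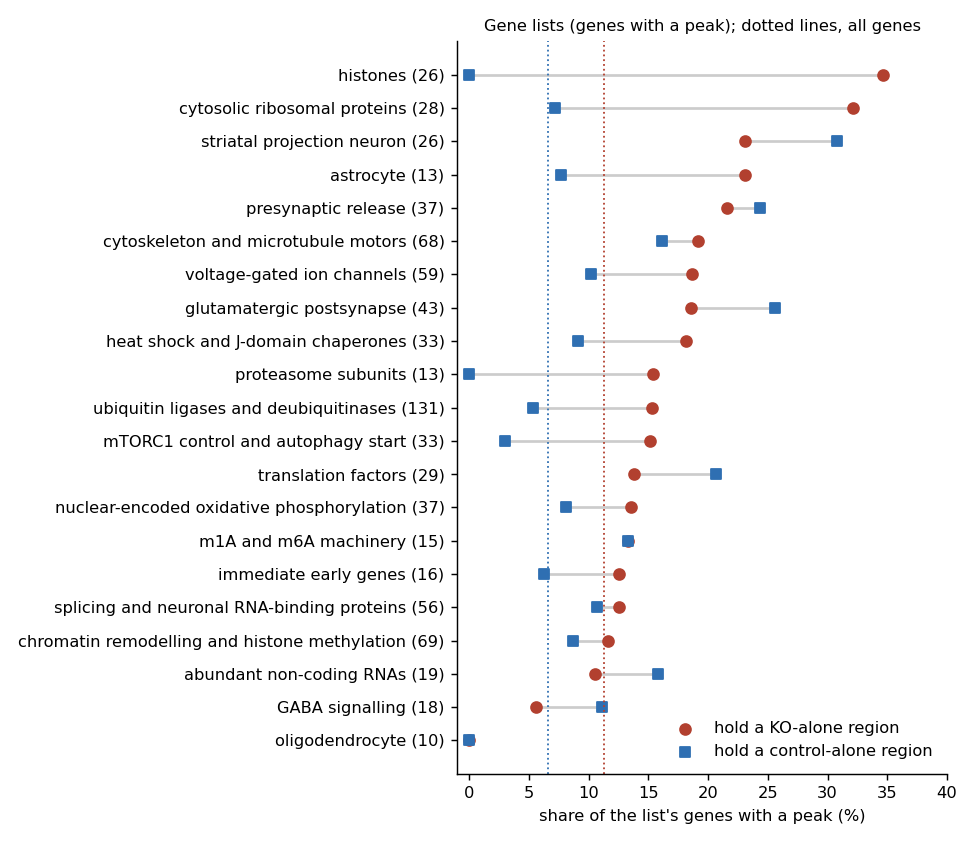
Share of each list's genes with a peak (number in parentheses) that hold a KO-alone region (red circles) or a control-alone region (blue squares), in percent; dotted lines give the same shares over all 6643 genes with a peak, 11.3% and 6.62%. Lists with at least 10 such genes are shown; histone genes, at the top, have 9 of 26 against 0, and ribosomal protein genes 9 of 28 against 2.

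Histone genes stood at the top of the 27 gene lists examined. Of 26 histone genes with a peak, 9 held a KO-alone region (34.6%, against 11.3% of all genes with a peak) and 0 held a control-alone region. None of the 9 had any control peak. The rule itself bars a control peak over a member, and a member can fill much of a short gene. In H1f2 it was 494 bp of a span of 0.725 kb. The absence of control peaks thus follows in part from the rule. H2aj, which encodes a replacement histone, was called in all 3 KO lists at 5.33-, 5.29- and 6.24-fold. The others were each called in 2 lists: H2ac10 at 10.3 in KO 1 and 3.86 in KO 2, H1f3 at 3.48 in KO 2 and 6.04 in KO 3, and H3c2 at 4.46 in KO 1 and 4.34 in KO 3, with H1f2, H2ac19, H2bc12, H2bc4 and H4c1 between 2.67 and 5.50. All 9 summits lay within 1 kb of a start, in genes that are short.

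The histone count was fragile. Most of these folds were low, and with peaks of at least 4-fold alone 2 genes remained. Without KO 3 the count was also 2, and without KO 1 it was 3. Replication-dependent histone genes form families of near-identical copies, so the copy to which a peak belongs is uncertain.

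Cytosolic ribosomal protein genes came next, with 9 of 28 (32.1%) holding a KO-alone region and 2 holding a control-alone region. Rps15 held 2 members, one at 13.8-fold in KO 1 and 11.2 in KO 3, 277 bases from the start, and one at 6.55 in KO 1 and 8.04 in KO 2. Rps16 was called at 16.2 in KO 1 and 12.7 in KO 3. Rpl41, at 3.65-, 4.50- and 3.06-fold, and Rpl37, at 6.88-, 6.40- and 4.03-fold, were called in all 3 KO lists, as was a second region of Fau at 4.85, 4.68 and 5.90. Rps16 had control peaks, in a region of all 6 libraries, and the other 8 genes had none. In short genes such as Fau (1.58 kb) and Rps15 (1.68 kb) this too follows in part from the rule. Of the 11 regions, 8 lay within 1 kb of a start. Without KO 1, 3 genes remained, and most ribosomal protein genes have processed pseudogenes that can take their reads.

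Lists of protein turnover and folding lay nearer the background of 11.3% and 6.62%. Of 131 ubiquitin ligase and deubiquitinase genes with a peak, 20 (15.3%) held a KO-alone and 7 (5.34%) a control-alone region. Herc1, a giant HECT-domain ligase, had 12.0-, 26.7- and 6.63-fold, and Fbxl17, an F-box protein, had 8.70-, 18.6- and 10.8-fold in all 3 KO lists. Fbxl17 also held a control-alone region. In the heat shock and J-domain list the count was 6 of 33 (18.2%) against 3 (9.09%). Hspbp1, an Hsp70 cofactor, held 2 members called in all 3 KO lists, at 10.5, 21.7 and 10.8 and at 16.1, 12.8 and 5.70, and had no other peak in any library. Hsp90aa1 was called at 5.21-, 4.20- and 4.89-fold. Hspa1a and Hspa1b were called in KO 1 and KO 2 but are near-identical copies. Proteasome subunits gave 2 of 13 (15.4%) against 0 (Psmd2 and Psme3), both with control peaks elsewhere.

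In the list for mTORC1 control and the start of autophagy, 5 of 33 genes (15.2%) held a KO-alone region and 1 (3.03%) a control-alone region. Over all genes with a peak the shares were 11.3% and 6.62%. The KO-alone share of this list thus lay near the background, and its control-alone share rests on 1 gene. Of the 5 regions, 4 were called in all 3 KO lists. Ulk1, the kinase that starts autophagy, had 9.03-, 7.42- and 14.7-fold, 180 bases from a start. Ddit4, an inhibitor of mTORC1, had 8.03-, 6.46- and 9.81-fold, and Deptor, which binds and inhibits mTOR, had 6.51-, 15.8- and 7.04-fold. Akt1s1, the mTORC1 substrate PRAS40, was called in KO 1 at 10.8 and in KO 3 at 13.2. It is also the gene of the list with a control-alone region, at 8.84 in control 2 and 8.25 in control 3. Gabarapl1 was weaker, at 3.81, 2.19 and 2.34.

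Genes of striatal and synaptic function held regions of both kinds. Among 26 genes of striatal projection neurons with a peak, 6 (23.1%) held a KO-alone and 8 (30.8%) a control-alone region, both above the shares over all genes, and all 6 also had control peaks elsewhere. They included Gng7, the G protein subunit that couples striatal receptors to adenylyl cyclase (9.02-, 8.22- and 6.03-fold), Adcy5, that cyclase (9.80 in KO 2 and 5.11 in KO 3), and the phosphodiesterase gene Pde10a (7.64 in KO 1 and 9.57 in KO 2). Adcy5 and Pde10a each held a control-alone region as well. Arpp21, a cAMP-regulated phosphoprotein gene, held 2 members. The postsynaptic list gave 8 of 43 (18.6%) against 11 (25.6%), and the presynaptic list 8 of 37 (21.6%) against 9 (24.3%), so here too both kinds lay above the 11.3% and 6.62% over all genes. Bsn, Nrxn2 and Ppfia3 held regions of both kinds. In Bsn, beside its single KO-alone region there were 6 control-alone regions.

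Ion channel and cytoskeletal genes were spread over both classes as well. In each list both shares lay above the 11.3% (KO-alone) and 6.62% (control-alone) over all genes with a peak. Of 59 voltage-gated channel genes, 11 (18.6%) held a KO-alone and 6 (10.2%) a control-alone region. Scn8a, the sodium channel Nav1.6, had 7.40-, 20.02- and 5.37-fold, and Kcnc1, a fast potassium channel, had 12.5-, 6.15- and 7.53-fold. Of 68 cytoskeletal and motor genes the counts were 13 (19.1%) and 11 (16.2%), and 4 genes, Dctn1 among them, held both kinds. None of the 18 members in that list lay within 1 kb of a start, and 6 were called in all 3 KO lists.

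Genes that act on nucleic acid methylation formed small lists, so each share rests on few genes. KO-alone regions lay in 13.3% of m1A and m6A machinery genes with a peak, and in 25% of TET and DNA methylation genes. Over all genes with a peak the share was 11.3%. Of 15 genes of the m1A and m6A machinery with a peak, Alkbh3 and Rbm15, an adaptor of the m6A writer, held KO-alone regions, and 2 held control-alone regions. Of 8 genes of the TET and DNA methylation list, Mbd3, a subunit of the NuRD complex, was called at 11.2-, 4.69- and 7.75-fold, and the de novo methyltransferase gene Dnmt3a at 4.81 in KO 1 and 5.60 in KO 3. Both also had control peaks elsewhere, and 0 genes of this list held a control-alone region. Among splicing factors and neuronal RNA-binding proteins, 7 of 56 held KO-alone and 6 control-alone regions. Rbfox3 held 2, one of them in all 3 KO lists at 6.32-, 10.0- and 9.80-fold.

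The share with KO-alone regions was near or below 11.3% in the remaining lists. Chromatin remodelling and histone methylation genes gave 8 of 69 against 6, nuclear-encoded oxidative phosphorylation genes 5 of 37 against 3, translation factors 4 of 29 (13.8%) against 6 (20.7%, above the 6.62% over all genes), and immediate early genes 2 of 16 against 1. Jun, of the last list, was called at 3.60-, 3.60- and 4.08-fold. GABA signalling genes gave 1 of 18 against 2. Of 9 mitochondrially encoded RNAs with a peak, 0 held a region of either kind. The mitochondrial genome did hold a KO-alone region outside annotated genes, at MT:15805-16079 and 537 bp from TrnP. It was called at 2.60-fold in KO 1, 3.13 in KO 2 and 3.38 in KO 3.

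Markers of other cell types that CPu tissue holds were read in the same way. Of 10 oligodendrocyte marker genes with a peak 0 held a KO-alone region, as did 0 of 6 microglial, 0 of 5 cortical neuron and 0 of 2 interneuron markers. Control-alone regions lay in 1 microglial marker, Laptm5, in 1 interneuron marker, Sst, in 1 astrocyte marker, Slc4a4, and in 0 of the oligodendrocyte, cortical neuron and endothelial markers. Over all genes with a peak the shares were 11.3% for KO-alone and 6.62% for control-alone regions. Each of these marker counts, the zeros included, rests on few genes, so no cell type pattern is read from them. Of 13 astrocyte markers with a peak, 3 (23.1%) held a KO-alone region. These were Gfap at 13.6 in KO 1 and 10.6 in KO 3, Clu at 7.27 in KO 1 and 10.4 in KO 2, and Glul at 2.26-, 1.90- and 2.59-fold in all 3 KO lists. Glul, the glutamine synthetase gene, had no control peak, whereas Gfap and Clu had control peaks elsewhere. The Glul folds in KO 1 and KO 2 were the lowest of all peaks in KO-alone regions of those lists. A missing control call at so weak a site says little. The endothelial glucose transporter gene Slc2a1 was the 1 of 6 endothelial markers with a KO-alone region (16.7%). It was called at 15.6 in KO 1 and 11.6 in KO 2, and it also had control peaks elsewhere. The input levels of these markers are not in the peak lists, and the part of cell composition in the KO-alone regions was not tested.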

How the data were processed

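m1A pull-down and input RNA of mouse CPu was sequenced in 12 samples, and the 6 deposited peak lists, one per pull-down against its own input, were analysed. Per the submitters' processing notes, the tools were cutadapt 2.8, HISAT2 2.1.0 and MACS2 2.2.6 on GRCm38. Per the file headers, peaks passed q of 0.01 with tags extended to 150 bp. The deposited lists give fold enrichment, the −log10 p-value and −log10 q-value, and the pileup, a coverage signal, all made by the authors, and no read counts per gene. Depth is therefore known only as the tags the headers report, and its precision per region is unknown.

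Lists were merged in Python 3.11.15 with pandas 2.3.3. A region's gene is the RefSeq GRCm38.p6 gene span holding the summit of its peak with the highest fold enrichment. Starts came from the RefSeq promoter table (27025 genes, without chromosome 18), so 20 members have no distance to a start. With no counts there is no count model, and conditions were compared over libraries with exact permutation tests over the 20 assignments of 6 libraries, with sign flips within replicate numbers as the replicate block. Merging was tested on simulated lists.

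Text examples are the 20 strongest regions of all 3 KO lists in a gene, the 8 strongest of 2 lists, genes with several members, up to 4 members per gene list, the 3 weakest by q-value, and regions chosen after their values were seen (promoter, small RNA and no-gene examples, further list members). Members and gene lists were chosen with earlier results of these data known. No label says that libraries came from separate animals, so p-values measure the spread between these samples, which may be technical. Results for some genes are not reported here.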

Additional observations from a re-analysis of the deposited data

How the results depend on the processing

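Leaving out each library in turn gave 330 to 1193 KO-alone and 135 to 651 control-alone regions, 79.3% to 83.7% of KO-alone regions in protein-coding spans and 11.6% to 16.4% in no gene, 13.4% to 22.9% of KO-alone and 30.6% to 43.7% of control-alone regions within 1 kb of a start, a host gene difference of 4.10 to 15.8 points, 2 to 9 histone and 3 to 10 ribosomal protein genes, and a start share difference among the remaining peaks of -9.17 to 6.56 points. The last value turned positive without control 2 (1.65), control 3 (2.71) or KO 2 (6.56), and the cause was not tested. Without control 1 and KO 2 together there were 504 KO-alone regions, with 79.4% in protein-coding spans, 16.1% in no gene and 23.1% near a start, against 33.6% of control-alone regions near a start. Within 300 bp the start shares were 10.99% and 29.1%, and for genes with an annotated start they were 25.04% and 49.3%. Peaks of at least 4-fold left 2 histone genes. The replicate numbers are shared only as numbers: with the replicate block the host gene difference of 6.66 points had a sign-flip permutation p of 0.5, and that of the remaining peaks, -1.60, had a p of 1, with a smallest possible p of 0.25. The 236 regions chosen by the naming rule kept their class in 89 to 236 cases. The start-table and nearby-peak alternatives, and every alternative of the control-alone start share, of the histone, ribosomal and named-region counts and of the remaining peaks, were chosen after seeing the data. Other merging distances, q limits and lists of equal length left these shares within their 95% Wilson intervals, and lists of equal length gave 657 KO-alone regions. Low pileups limit what can be said of any single absence.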
